A study of Homo sapiens with 6 samples.

Results

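G0S2 and 9 other genes of lipid droplet lipolysis were described in the established human glioblastoma line U87MG. The genes, taken by symbol from a table of 25737 rows, are G0S2, PNPLA2, ABHD5, LIPE, MGLL, PLIN2, PLIN3, HILPDA, LPIN1 and DGAT1. They were chosen because G0S2 was lowest in 3 particular libraries, so that pattern is a description and carries no test. Cells were kept for 24 h in DMEM without serine and glycine (deprived, 3 libraries) or in DMEM with both amino acids (complete, 3 libraries). All cells had been maintained in DMEM with 10% fetal bovine serum and antibiotics, and all were labelled naïve. RNA was read with a kit that counts the 3′ ends of polyadenylated transcripts, so a count is not set by the length of the transcript. Nothing in the labels tells if the 3 libraries of a medium are separate cultures, so the spread behind the p-values may be technical.

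Lipid droplets store triacylglycerol under a coat of perilipins. Lipolysis releases the fatty acids in order: PNPLA2, also called ATGL, removes the first one, LIPE acts on the diacylglycerol and MGLL on the monoacylglycerol. ABHD5, also called CGI-58, activates PNPLA2, whereas G0S2 and HILPDA bind PNPLA2 and inhibit it. LPIN1 and DGAT1 work in the opposite direction, towards new triacylglycerol. In glioblastoma, droplets are a known store of fatty acids and cholesteryl esters.

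The 250 bases before the annotated start of G0S2 are shown because this gene had the widest range of the members tested. The window is chr1:209675162-209675411 on the plus strand of human assembly GRCh38.p14, from RefSeq, 5′ to 3′, with the letters TATAA in capitals.
G0S2: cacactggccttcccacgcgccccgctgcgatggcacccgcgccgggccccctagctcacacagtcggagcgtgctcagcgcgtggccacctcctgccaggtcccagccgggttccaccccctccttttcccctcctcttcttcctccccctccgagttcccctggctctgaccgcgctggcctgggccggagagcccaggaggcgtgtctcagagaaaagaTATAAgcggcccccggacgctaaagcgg

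G and C made up 69.2% of these bases. The only match to the TATA box core TATAA, searched on both strands, began at position -28 relative to the start. Such a match was found in 6616 of 34788 RefSeq windows of the same kind, or 19.0%. The G0S2 window held 0 matches to the letters TGATGNAA of the ATF4 composite element (3.16% of windows), ACGTG of the hypoxia element (18.5%), TTGCNNAA of C/EBP sites (9.05%), GTAAACA of FOXO sites (2.98%) and GGGCGG of GC boxes (42.6%). No match says only that these letters are not in this window. Of the 10 members 7 had a window. The PLIN2 window also held TATAA, read on the opposite strand and again from position -28, and it held ACGTG 3 times, a pair of these overlapping on opposite strands. Those of PNPLA2, PLIN3, ABHD5, LIPE and LPIN1 held neither TATAA nor ACGTG.

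Total counts ran from 6249706 to 7247995 per library. A count of 3 corresponded to 0.415 to 0.477 CPM, which are TMM-scaled counts per 1000000 counts of a library, and this floor takes only counting error into account. The libraries deprived 1, deprived 3 and complete 1 stood apart from deprived 2, complete 2 and complete 3, across the labels. Whether deprived 2 and complete 1 carry each other's label was not tested, and every difference by label depends on it, as does the count of genes called. PHGDH, the first enzyme of serine synthesis, measured 201, 64.3 and 212 CPM in deprived 1, 2 and 3, and 193, 59.3 and 58.9 CPM in complete 1, 2 and 3. The nuclear noncoding RNA MALAT1, an abundant transcript, was at 32437, 19318 and 31253 CPM in deprived 1, 2 and 3. In complete 1, 2 and 3 it was at 27293, 19234 and 18879 CPM, and its part in the results was not tested. In the deposited table the columns of deprived 1, complete 1 and deprived 3 come first, side by side. Of 7 glioblastoma line markers, VIM, NES, CD44 and EGFR were above the floor in all libraries, while GFAP reached at most 0.889 CPM, SOX2 at most 0.141 CPM, and S100B had 0 counts. The 7 summed to 5775 to 7801 CPM in deprived and 6096 to 7859 CPM in complete libraries, mostly from VIM. All 4 of the markers above the floor had their 3 lowest values in deprived 1, deprived 3 and complete 1. That order was found in 17.7% of all genes tested, and the part of these markers in the results was not tested. CD44, an adhesion receptor, measured 541, 806 and 542 CPM in deprived 1, 2 and 3, against 541, 860 and 796 CPM in complete 1, 2 and 3. The 4 adipocyte markers ADIPOQ, LEP, PLIN1 and CIDEC summed to at most 0.426 CPM in deprived and 0.636 CPM in complete libraries. Hepatocyte and leukocyte markers likewise stayed near the floor, with ALB at most 0.296 CPM and PTPRC at most 0.566 CPM. The epithelial genes CDH1 and KRT5 had 0 counts and EPCAM at most 1.66 CPM, and the endothelial gene PECAM1 lay between 0.741 and 2.29 CPM.

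The design asks which transcripts differ once serine and glycine are withdrawn. By label, edgeR's quasi-likelihood test called 0 of 13068 genes at a Benjamini-Hochberg adjusted p under 0.05, a background of 0%. At an unadjusted p under 0.05 there were 247 genes, or 1.89%. DESeq2 and limma-voom also called 0 genes. At an unadjusted p under 0.05, DESeq2 had 140 of 19472 genes (0.719%), without the low count filter. With limma-voom there were 251 of 13068 (1.92%). Of the 10 members 9 passed the low count filter, PLIN2 being left out, and 0 of the 9 were called or had an unadjusted p under 0.05. Their edgeR adjusted p was 0.999 in each case. Among these 9, 3 log2 fold changes were positive and 6 negative, with a median of -0.05, against 6662 positive, 6406 negative and a median of 0.003 over all genes tested. In 0 of the 9 were the 3 deprived libraries separate from the 3 complete ones, against 6.97% of all genes.

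The inhibitors of PNPLA2 come first. G0S2 measured 32.5, 123 and 33.4 CPM in deprived 1, 2 and 3, and 34.2, 119 and 114 CPM in complete 1, 2 and 3. It was low in deprived 1, deprived 3 and complete 1, and the labels overlapped. In bulk RNA, fewer cells with the transcript and less transcript per cell cannot be told apart. The underlying counts were 227, 867 and 236 for deprived medium, against 215, 862 and 772 for complete medium. Within the low libraries the exact Poisson 95% intervals, which cover counting error only, overlapped, at 28.4 to 37.0, 29.3 to 37.9 and 29.8 to 39.1 CPM for deprived 1, deprived 3 and complete 1. Averaged by label, G0S2 was 63.0 ± 52.0 CPM in deprived and 89.3 ± 47.7 CPM in complete medium (SD, n = 3 each). The edgeR log2 fold change, deprived over complete, of -0.51 with a standard error (SE) of 0.56 lies within the spread between libraries.

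The library sets of G0S2 were far apart. The lowest of its high values exceeded the highest of its low values by 1.73 on the log2 CPM scale with a prior count of 3, or 3.32-fold. Among 2021 genes with a mean of at least 10 CPM whose 3 lowest values lay in the same libraries, G0S2 ranked 1 by that gap. Its CPM without a prior count spanned 3.79-fold, and by its whole range on the same log2 scale it ranked 37 of 9567 genes. These ranks restate the values by which G0S2 was chosen.

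HILPDA, a small hypoxia-inducible droplet protein, measured 79.1, 57.2 and 68.3 CPM in deprived 1, 2 and 3, and 77.2, 59.7 and 55.6 CPM in complete 1, 2 and 3. Its high libraries were those in which G0S2 was low, but its range was 1.42-fold. By label HILPDA was 68.2 ± 10.98 CPM in deprived and 64.2 ± 11.5 CPM in complete medium (SD, n = 3 each), with an edgeR log2 fold change of 0.09 (SE 0.15).

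PNPLA2 itself, the lipase that opens triacylglycerol breakdown, was at 63.8, 53.6 and 58.0 CPM in deprived 1, 2 and 3, and at 65.9, 59.4 and 58.7 CPM in complete 1, 2 and 3. Its libraries of either label overlapped, and the highest was 1.23-fold above the lowest. The edgeR log2 fold change was -0.07 (SE 0.10). ABHD5, its activator, was at 69.1, 76.8 and 70.9 CPM in deprived 1, 2 and 3, and at 76.2, 73.8 and 82.1 CPM in complete 1, 2 and 3. ABHD5 also overlapped between labels, with an edgeR log2 fold change of -0.10 (SE 0.09).

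The ratio of inhibitor to lipase counts within a library does not depend on library scaling. For each PNPLA2 count, deprived 1, 2 and 3 had 0.509, 2.29 and 0.576 counts of G0S2, and complete 1, 2 and 3 had 0.519, 2.0 and 1.95. The ratio was below 1 in deprived 1, deprived 3 and complete 1 and near 2 in the others, as the choice of G0S2 and the narrow range of PNPLA2 fix. HILPDA counts per PNPLA2 count stayed between 1.07 and 1.24 in deprived and between 0.947 and 1.17 in complete libraries. ABHD5 counts per PNPLA2 count were 1.25 ± 0.175 in deprived and 1.27 ± 0.123 in complete medium (SD, n = 3 each).

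**Figure D1:**
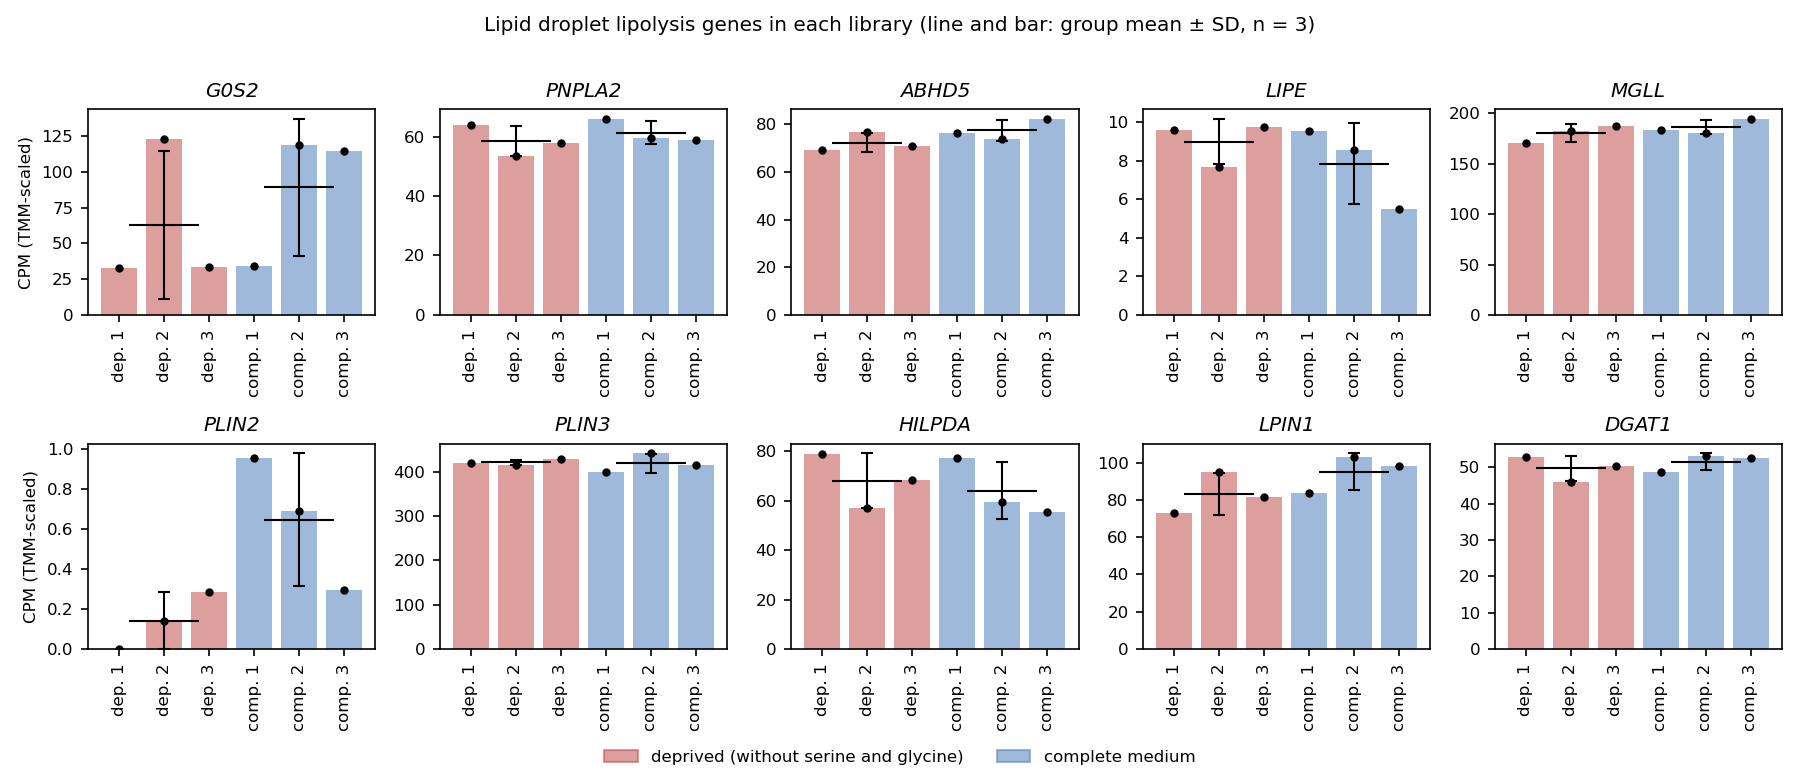
TMM-scaled CPM of the 10 genes (vertical axes, each from 0) in deprived 1 to 3 (red) and complete 1 to 3 (blue); points and bars are libraries, and black lines with error bars are group means ± SD (n = 3). G0S2 does not exceed 34.2 CPM in deprived 1, deprived 3 or complete 1 and is at least 114 CPM elsewhere, while PNPLA2 stays between 53.6 and 65.9 CPM.

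The later steps of lipolysis varied less than G0S2. LIPE, the hormone-sensitive lipase, was the scarcest member tested, at 9.59, 7.66 and 9.76 CPM in deprived 1, 2 and 3, and at 9.55, 8.57 and 5.48 CPM in complete 1, 2 and 3. These rest on 37 to 69 counts, and only complete 3 stood low, with an exact Poisson 95% interval of 3.86 to 7.56 CPM. The edgeR log2 fold change of 0.20 had an SE of 0.24, and it was -0.01 without complete 3 and 0.35 without complete 1. MGLL, the monoacylglycerol lipase that also breaks down an endocannabinoid in brain, was at 171, 183 and 188 CPM in deprived 1, 2 and 3, and at 184, 181 and 194 CPM in complete 1, 2 and 3. All 6 MGLL values lay within 1.14-fold, and the edgeR log2 fold change was -0.05 (SE 0.08).

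Of the coat proteins, PLIN3, which moves between cytosol and droplets, was at 420, 416 and 427 CPM in deprived 1, 2 and 3, and at 398, 441 and 415 CPM in complete 1, 2 and 3. It had the narrowest range of the members, 1.11-fold, and a log2 fold change of 0.01 (SE 0.08). PLIN2, a coat protein that many cell types carry on their droplets, had 0, 1 and 2 counts in deprived 1, 2 and 3, and 6, 5 and 2 counts in complete 1, 2 and 3. These are at or near the floor, at no more than 0.283 CPM in deprived and 0.955 CPM in complete libraries, and PLIN2 fell under the low count filter. The annotation and counting rules behind the table are not given in what was used, so these counts may not reflect how much PLIN2 the cells express, which was not tested. The exact Poisson 95% intervals reached 1.02 CPM in deprived 3 and 2.08 CPM in complete 1 and overlapped between the labels. PLIN1 and PLIN5, coats of adipocytes and of oxidative tissues, had at most 2 and 1 counts, and PLIN4 lay between 9.36 and 13.8 CPM.

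The genes on the synthetic side were LPIN1 and DGAT1. LPIN1, a phosphatase that makes diacylglycerol from phosphatidate, was at 73.0, 94.9 and 81.5 CPM in deprived 1, 2 and 3, and at 83.8, 103 and 98.3 CPM in complete 1, 2 and 3. Its lowest libraries were those of G0S2, with a range of 1.41-fold. By label LPIN1 was 83.1 ± 11.1 CPM in deprived and 94.98 ± 9.92 CPM in complete medium (SD, n = 3 each), and its edgeR log2 fold change of -0.19 had an SE of 0.12. DGAT1, which adds the last fatty acid to triacylglycerol, was at 52.9, 46.1 and 50.4 CPM in deprived 1, 2 and 3, and at 48.8, 53.2 and 52.5 CPM in complete 1, 2 and 3. The labels overlapped for DGAT1, and its edgeR log2 fold change was -0.05 (SE 0.10).

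Over the members, the libraries that set G0S2 apart gave the 3 lowest values for 2 of the 9 tested genes, G0S2 and LPIN1, against 17.7% of all genes. They gave the 3 highest values for 2 of the 9, HILPDA and LIPE, against 18.3%. With G0S2 chosen by this order, the members' counts lie near the background. PNPLA2, ABHD5, MGLL, PLIN3 and DGAT1 did not divide the libraries in this way. For LIPE the division was within counting error. Its exact Poisson 95% intervals in complete 1 and complete 2, 7.28 to 12.3 and 6.57 to 11.0 CPM, overlapped. Such intervals also overlapped at the division for HILPDA, at 62.4 to 74.7 CPM in deprived 3 and 54.2 to 65.6 CPM in complete 2. So did those of LPIN1, at 76.8 to 91.3 CPM in complete 1 and 87.9 to 102 CPM in deprived 2.

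Without deprived 2 and complete 1, whose values had been seen to go against their label, G0S2 had an edgeR log2 fold change of -1.83 (SE 0.10). This is given with no test, since G0S2 was chosen by its values in these libraries. Of the 8 other members tested, edgeR called LPIN1 and HILPDA. LPIN1 had a log2 fold change of -0.38 (SE 0.09) and an edgeR adjusted p of 0.00322, and HILPDA one of 0.35 (SE 0.10) and an edgeR adjusted p of 0.0173. In that fit 8.57% of all genes were called higher and 7.38% lower in deprived medium. The libraries left out were picked by their values, so these calls are no independent test of the medium. With all libraries but one, G0S2 ran from -1.44 without deprived 2 to -0.19 without deprived 1, and 0 members were called.

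**Figure D2:**
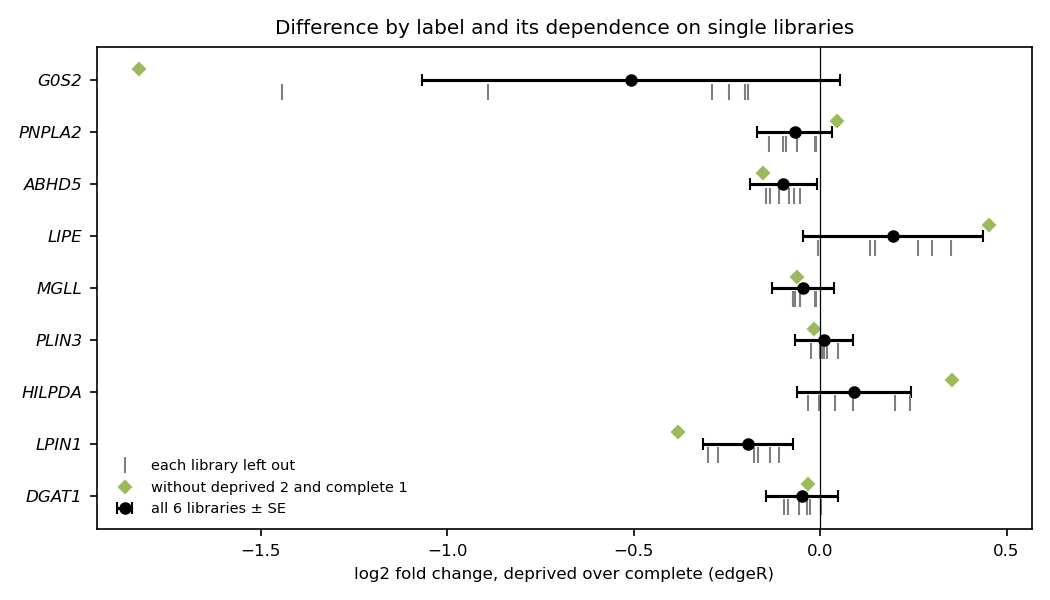
edgeR log2 fold change of deprived over complete medium (horizontal axis) for the 9 tested genes, with all 6 libraries (black, ± SE), with each library left out (grey ticks) and without deprived 2 and complete 1 (green). G0S2 moves between -1.83 and -0.19, whereas PLIN3 stays between -0.02 and 0.05.

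The genes with the profile most like that of G0S2 were sought among 9567 genes with a mean of at least 10 CPM. The measure was the root mean square difference of log2 CPM, each gene centred on its own mean over the 6 libraries. IL11, a cytokine of the IL6 family, was nearest at 0.146, with 13.0, 39.0 and 11.0 CPM in deprived 1, 2 and 3, and 10.8, 38.1 and 33.4 CPM in complete 1, 2 and 3. SPRY4, a feedback inhibitor of receptor tyrosine kinase signalling, followed at 0.199, RGS4, a regulator of G protein signalling, at 0.241, and BDKRB1, a bradykinin receptor, at 0.252. The noncoding RNA LINC01551 was next at 0.287. Each of these was lowest in the libraries where G0S2 was low, as the measure requires.

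The mirror image of G0S2 was matched more closely than the profile itself. GPNMB, a membrane glycoprotein, lay 0.0897 from it, with 52.9, 14.3 and 58.6 CPM in deprived 1, 2 and 3, and 47.1, 13.8 and 15.7 CPM in complete 1, 2 and 3. PHGDH was at 0.0908, SLC1A4, a carrier of serine and other neutral amino acids, at 0.0964, FBXO32, a ubiquitin ligase subunit, at 0.0976, and BEST1, a chloride channel, at 0.101. None of the 10 genes named for likeness belonged to the lists of neutral lipid genes used here. Those lists hold few of the 9567 genes searched, so this absence says little.

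**Figure D3:**
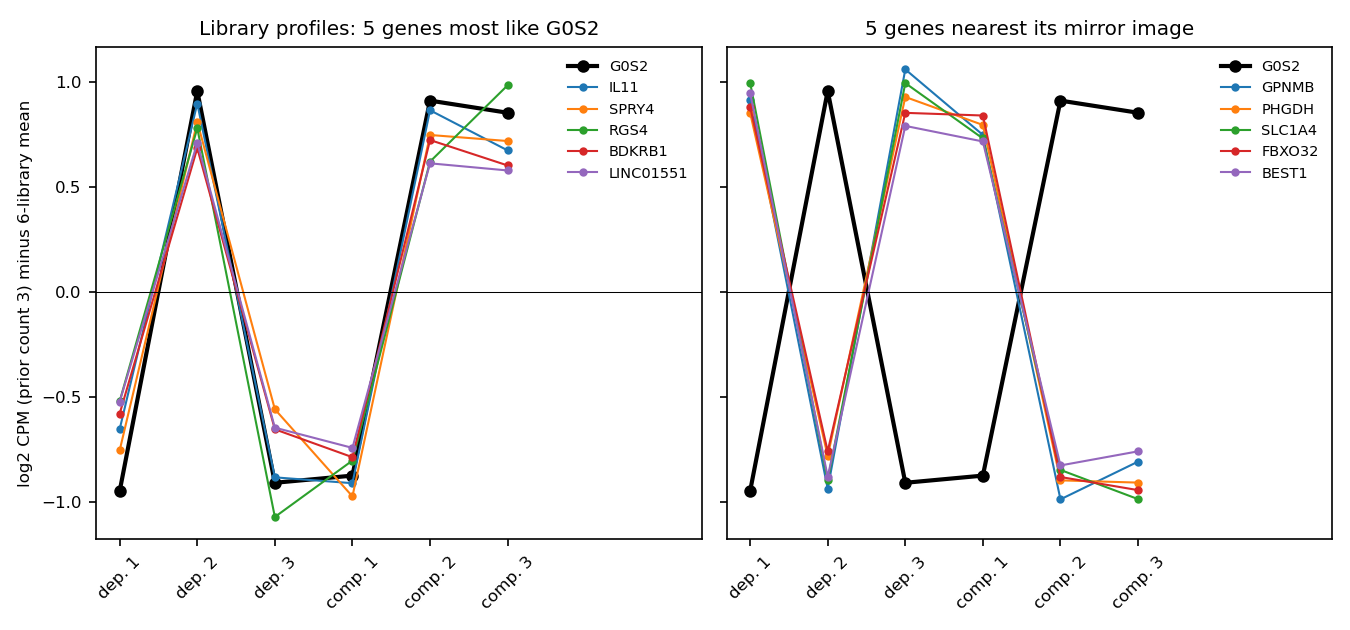
log2 CPM (prior count 3) minus each gene's mean over 6 libraries (vertical axis) in deprived 1 to 3 and complete 1 to 3, for G0S2 (black) with the 5 most similar genes (left) and the 5 nearest its mirror image (right); lines join the values of 1 gene and have no order in time. In deprived 1, deprived 3 and complete 1, G0S2 lies at -0.95 to -0.87 from its mean, and PHGDH lies above its own mean.

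Of the other genes of neutral lipid metabolism, 130 were listed in 6 lists, 97 were tested, 31 fell under the filter and 2 stood on several rows and were left out. By label 0 of the 97 passed the edgeR threshold and 1 had an unadjusted p under 0.05. The labels did not overlap for 11 of the 97, or 11.3%, against 6.97% of all genes. The single gene under 0.05, CPT1C, a neuronal relative of the mitochondrial carnitine palmitoyltransferase, was at 14.2, 17.9 and 17.1 CPM in deprived 1, 2 and 3, and at 9.86, 10.8 and 13.9 CPM in complete 1, 2 and 3. Its log2 fold change was 0.51 (SE 0.18) and an unadjusted p of 0.0224, and its edgeR adjusted p was 0.999.

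Among droplet coat and assembly genes, 8 of 16 tested were positive and 8 negative, with a median log2 fold change of -0.002. LDAF1, a partner of seipin at sites of droplet formation, measured 34.7 ± 1.17 CPM in deprived and 30.1 ± 2.24 CPM in complete medium (SD, n = 3 each), without overlap. LSS, a sterol synthesis enzyme found on droplets, had a log2 fold change of 0.37 (SE 0.16), and CIDEB, a droplet fusion protein, one of 0.57 (SE 0.34). Glycerolipid synthesis genes were positive in 8 of 11, with a median of 0.03, and DGAT2, the other enzyme of the last step, had a log2 fold change of -0.26 (SE 0.16). SOAT1, which makes cholesteryl esters, had one of 0.27 (SE 0.18).

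Other neutral lipid hydrolases were positive in 9 of 13, with a median of 0.07. LIPA, the acid lipase of lysosomes, was at 37.1, 31.2 and 29.1 CPM in deprived 1, 2 and 3, and at 37.7, 40.4 and 39.0 CPM in complete 1, 2 and 3. These groups did not overlap, though deprived 1 lay close to complete 1, and the log2 fold change was -0.27 (SE 0.12). ABHD12 and ABHD6, which like MGLL hydrolyse monoacylglycerol, had log2 fold changes of 0.23 and 0.21 with standard errors of 0.11 and 0.14. PNPLA3, the nearest relative of PNPLA2, was at 104.6 ± 2.13 CPM in deprived and 103.9 ± 7.60 CPM in complete medium (SD, n = 3 each), a gene chosen after its values were seen.

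Fatty acid uptake and activation genes were positive in 9 of 13, with a median of 0.11. ACBD3 and DBI, which bind acyl-CoA, had log2 fold changes of 0.17 and 0.15, and ACSL1, an acyl-CoA synthetase, one of -0.27 (SE 0.20). Fatty acid oxidation genes were positive in 12 of 24, with a median of 0.004, which was -0.0008 under upper quartile scaling and -0.005 with library totals alone. ACADSB, a dehydrogenase of short branched chains, had a log2 fold change of 0.35 (SE 0.16), and SLC25A20, the carnitine carrier of mitochondria, one of -0.25 (SE 0.17). Regulators of lipid genes were positive in 13 of 20, with a median of 0.08, among them PPARA, a receptor that senses fatty acids, at 0.16 (SE 0.12). PPARGC1B, a coactivator of mitochondrial genes, had a log2 fold change of -0.35 (SE 0.19), and the hypoxia factor EPAS1 one of 0.18 (SE 0.12). Every value in these lists had an edgeR adjusted p of 0.999.

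**Figure D4:**
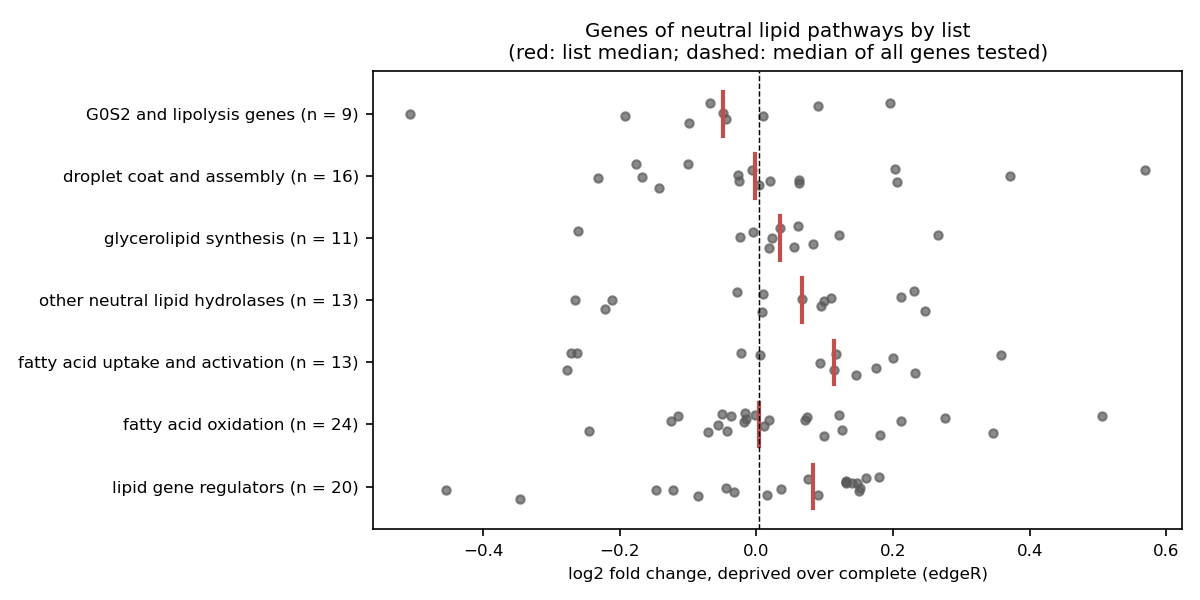
edgeR log2 fold change of deprived over complete medium (horizontal axis) for each tested gene of 7 lists (rows; points are genes, spread vertically for legibility only), with list medians in red and the median of all genes tested dashed. The medians run from -0.05 for G0S2 and the lipolysis genes to 0.11 for fatty acid uptake and activation, and no gene passed the threshold.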

How the data were processed

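Raw read counts, not normalized, were deposited by the authors as 1 table with a row for each gene symbol. Per the labels' protocols, 500 ng of total RNA went into each QuantSeq 3′ mRNA library, and Bowtie2 is named in the submitters' processing notes. The sources used here give neither its version nor the counter, genome build, annotation or strand setting. Columns were matched to samples by name, with 0 left unused.

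Counts were fitted with edgeR 4.0.16 in R 4.3.3 (filterByExpr at a minimum count of 10, TMM, quasi-likelihood test, Benjamini-Hochberg adjustment over all 13068 rows tested, threshold 0.05) and tested on simulated data. CPM were TMM-scaled, with a prior count of 3 on the log2 scale. Alternatives were other scalings and filters, DESeq2 1.42.0, limma-voom (limma 3.58.1), a replicate block and libraries left out. Python 3.11.15, pandas 2.3.3, SciPy 1.17.1 and Matplotlib 3.10.9 were used for description.

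The members, gene lists and the removal of deprived 2 and complete 1 were chosen with earlier results of these data known. The text names all members, up to 3 tested genes per other list with the smallest p, and the 5 genes nearest the G0S2 profile and its mirror image; other genes were chosen after their values were seen. Libraries all differed beyond sampling noise, at a chi-square per gene of 2.41 to 15.5 between pairs. It was 2.41 to 3.29 for pairs within deprived 1, deprived 3 and complete 1, or within the other libraries. Pairs across these sets were at 12.4 to 15.5. AGPAT1 and RXRB stood on several rows and were left out. RefSeq (GRCh38.p14) supplied promoter windows, and LDAF1, TMT1A, TMT1B, SPART, GPAT3 and GPAT4 were found under older symbols.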

Additional observations from a re-analysis of the deposited data

How the results depend on the processing

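The count of genes called by label was 0 under every other scaling and filter, with DESeq2, with limma-voom and with each single library left out (0 to 0). It was 2096 without deprived 2 and complete 1, which were picked by their values. A replicate block gave 0 called genes and 429 at an unadjusted p under 0.05. The labels do not say that equal numbers mark pairs. Across genes, the correlation between a deprived and a complete library sharing a number was 0.384, 0.381 and -0.281. For deprived 2 and complete 1, which stand across the labels, it was -0.597. These values cannot decide if the numbers pair the samples, since pairing was not separated from the library sets that cross the labels. The best partner of a library was often one with another number. Without deprived 2 and complete 1 the log2 fold change was 0.0443 for PNPLA2 and -0.0155 for PLIN3, each opposite in sign to the value with all libraries. With 1 library left out it ran from -0.0328 to 0.242 for HILPDA, from -0.0971 to 0.00286 for DGAT1, from -0.0246 to 0.0477 for PLIN3 and from -0.00694 to 0.352 for LIPE, and these changed sign. It kept its sign for G0S2, PNPLA2, ABHD5, MGLL and LPIN1. The cause was not tested. Under the other scalings the number of members at their 3 lowest or highest in deprived 1, deprived 3 and complete 1 stayed 2 and 2. The median log2 fold change over all genes stayed between -0.006 and 0.003 under the 4 scalings, and the number of positive genes in a list moved by at most 1. LIPE rests on 37 to 69 counts per library, and the part of depth in the range of its log2 fold change was not tested. For PLIN2, at or near the floor, low expression and the unknown annotation cannot be told apart, and the part of depth was not tested.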

Other observations

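Several regulators of lipid genes had their 3 highest values in deprived 1, deprived 3 and complete 1, the libraries where G0S2 was lowest: 6 of 20 tested, or 30.0%, against 18.3% of all genes, and 1 of 20 had its lowest there, against 17.7%. They were NR1H2, PPARGC1A, SREBF2, MLXIPL, EPAS1 and CEBPB, chosen after their values were seen. The list had the largest such share of the 7 lists, of which fatty acid oxidation had the smallest, 4.17%. MLXIPL rests on few counts, with 1 in deprived 2 and 6 and 7 in complete 2 and complete 3. At the division the counts of others were also close. PPARGC1A had 50 in deprived 1 and 37 in complete 3, and SREBF2 had 211 in deprived 1 and 195 in deprived 2. NR1H2 had 233 in deprived 3 and 196 in complete 3. The part of counting error in these orders was not tested. CEBPB, a transcription factor of fat cell differentiation and stress, was at 264, 208 and 297 CPM in deprived 1, 2 and 3, and at 302, 191 and 206 CPM in complete 1, 2 and 3. PPARGC1A, a coactivator of mitochondrial genes, was at 7.16, 3.55 and 8.63 CPM in deprived 1, 2 and 3, and at 9.23, 4.28 and 5.48 CPM in complete 1, 2 and 3. MLX, a partner of the glucose-sensing factors, was lowest in the same libraries, at 71.4, 85.5 and 65.4 CPM in deprived 1, 2 and 3, and at 70.3, 88.5 and 83.2 CPM in complete 1, 2 and 3.

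Over the 97 other neutral lipid genes, 19 had their 3 highest values in those libraries, or 19.6%, and 8 their 3 lowest, or 8.25%. Without deprived 2 and complete 1, a setting added for these lists after the data were seen, edgeR called 13 of the 97 higher, or 13.4%, and 4 lower, or 4.12%, against 8.57% and 7.38% of all genes. Those higher included ABHD4, a lysophospholipase, with a log2 fold change of 0.95 and a standard error of 0.21, and SOAT1, at 0.56 with a standard error of 0.13. NCEH1, a cholesteryl ester hydrolase, was among those lower, at -0.48 with a standard error of 0.09. Because these libraries were picked by their values, the counts are no independent test of the medium.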
